A study of Mus musculus with 30 samples.

Results

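The potassium channel genes of the mouse were taken as every gene whose symbol starts with Kcn, without antisense and opposite-strand transcripts, and were followed in hearts and in HL-1 cells. In hearts, 72 of the 20764 genes listed were such genes, and the 56 with a mean count over 5 were all tested, while the other 16 had too few counts. In HL-1 cells, 94 of 54532 genes were such genes, of which 30 had a mean count over 5 and 20 passed the filter on low counts and were tested. Of the 64 genes over 5 in either table, 22 were so in both, 34 in hearts only and 8 in HL-1 cells only. The hearts were from female mice, labelled C57BL6 and described in the study's methods as a cross of C57BL6/J and C57BL6/N, with 3 libraries per group and 1 mouse per library, kept under a cycle of light and dark. Young hearts came from mice of 2 months on plain water, old H2O hearts from mice of 12 months on plain water, and old NR hearts from mice of 12 months that drank nicotinamide riboside (NR), a precursor of NAD+, at 3 g per litre. Each group was taken at ZT10, in the light, or at ZT22, in the dark, where ZT counts hours from lights on. HL-1 is a line grown from an atrial tumour of a mouse and labelled as cardiomyocyte, and its 4 groups of 3 wells were untreated, given FK866, an inhibitor of the NAD+ salvage enzyme NAMPT, given FK866 and NR, or given FK866, NR and Ex527, an inhibitor of the NAD+-dependent deacetylase SIRT1. Every group but the untreated one carried FK866. The heart libraries held between 3922137 and 7562215 counts and the HL-1 libraries between 21337922 and 35000109.

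Potassium channels let potassium leave the cell, which ends the action potential and sets the resting potential of the heart muscle. The voltage-gated Kv subunits carry the transient outward and the delayed rectifier currents of repolarisation, the inward rectifiers of the Kir family hold the resting potential and respond to acetylcholine or to ATP, and the K2P subunits carry background current. Accessory subunits such as the KChIP, minK and Kv-beta proteins set how many channels reach the membrane and how they open, and several of the channels are known for a daily rhythm in the heart.

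The labelled cell type was checked against its markers before the channels were read. The 6 cardiomyocyte genes (Myh6, Tnnt2, Actn2, Ryr2, Tnni3 and Myl2) summed to a median of 5951 CPM, the count scaled to the same total in every library, in hearts, between 5195 and 7179, with Ryr2 the most abundant at 1873. In the HL-1 libraries the same 6 genes summed to a median of 0.559 CPM, between 0.260 and 4.55, with Tnnt2 the most abundant at 0.502 and Myl2 at 0 in all 12 libraries. The 5 atrial genes summed to 1.15 CPM there, with Myl7 the most abundant at 0.498, while the 4 fibroblast genes summed to a median of 3565 CPM, with Col3a1 the most abundant at 2628. Gata4, a transcription factor of the heart that was in none of these lists and was picked after its values were seen, was also read. It had a median of 95.9 CPM in the HL-1 libraries, between 82.8 and 115.9, and of 203.7 CPM in hearts. The contractile and atrial genes were thus near 0 in libraries labelled as cardiomyocytes while Gata4 was not. They are called HL-1 below as the labels do. One HL-1 library, FK866 NR replicate 1, stood apart: its 4 nerve and glia genes summed to 42.6 CPM, against 0.530 to 1.06 in the other 11. Among genes picked after their values were seen, it held 561 counts of Snap25, a synaptic gene, and 409 of Mobp, a myelin gene, against 0 in every other library. It also had the highest level of 51 of the 94 channel genes, and 24 of them were at 0 in the other 11 libraries, so that 7 genes were over the mean count of 5 through it alone and 23 stayed over 5 without it. Among the hearts, old NR ZT10 replicates 1 and 3 were nearly alike, with a chi-square per gene of 1.07 (p = 4.31e-08 over 13870 genes) where other pairs of one group gave 1.71 to 6.68. They differed beyond counting noise and the labels give them as separate samples, so they were counted as 2 hearts, but these values cannot tell 2 hearts from 2 libraries of 1 heart. Called time differences and interactions of channel genes that use old NR hearts at ZT10 are also given without one or the other, or as the number of fits that kept the call. Other values that use these hearts, those of partner and marker genes and the DESeq2 fits among them, were not recomputed without them and may rest on 2 hearts at that time.

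Highest in the hearts were background, ATP-sensitive and acetylcholine-gated pores, a silent Kv subunit and an accessory subunit of the transient outward channel. Per length, as CPM per kilobase of gene, Kcnk3, the K2P subunit TASK-1, was highest at 88.5 ± 6.23 (SD, n = 18), followed by Kcnj11, the pore Kir6.2 of the ATP-sensitive channel, at 79.0 ± 3.31, Kcnip2, the accessory subunit KChIP2 of the transient outward channel, at 76.0 ± 7.78, and Kcng2, a silent Kv subunit, at 58.8 ± 3.36. Kcnj5 and Kcnj3, the pores of the acetylcholine-gated channel, had 48.7 ± 4.27 and 44.7 ± 5.68 (SD, n = 18). The 5 highest genes made up 52.5% of the summed level of the channel genes. Kcnj11 and Kcnip2, and likewise Kcnj5 and Kcnj3, lay closer to each other than the SD of either. Kcnh2, the hERG pore of the rapid delayed rectifier, had 34.96 ± 6.15, Kcnj2 and Kcnj12, the pores of the classical inward rectifier, 29.1 ± 3.13 and 23.3 ± 1.68, and Kcnj8, the other ATP-sensitive pore, 28.3 ± 2.88. The delayed rectifier pores Kcnq1 and Kcna5 stood at 22.7 ± 2.21 and 19.1 ± 3.62, the transient outward pore Kcnd2 at 14.4 ± 2.11, and Kcne1, the minK partner of Kcnq1, at 6.81 ± 2.78 (SD, n = 18 each).

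The HL-1 libraries held a different set. Kcnn4, the intermediate-conductance channel opened by calcium, was highest at 12.3 ± 1.59 (SD, n = 12) on the same per-length scale, before the Kv-beta subunit Kcnab1 at 5.72 ± 0.694, the pore Kcnd1 at 4.53 ± 0.693, Kcnh2 at 4.31 ± 0.935 and Kcnab2, another Kv-beta subunit, at 3.87 ± 0.309. These 5 made up 78.4% of the summed level. Of the 20 genes most counted in hearts, 13 had a mean count of 5 or less in HL-1 libraries, among them Kcnk3, Kcnj11, Kcnj2, Kcnj3, Kcnj5, Kcnq1, Kcna5, Kcnd2 and Kcnd3. Kcnk3 was at 0.00295 and Kcnj11 at 0.0181 there. Both values came from FK866 NR replicate 1 alone, with 0 in the other 11 libraries. Kcnj5 was at 0 in all 12.

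**Figure D1:**
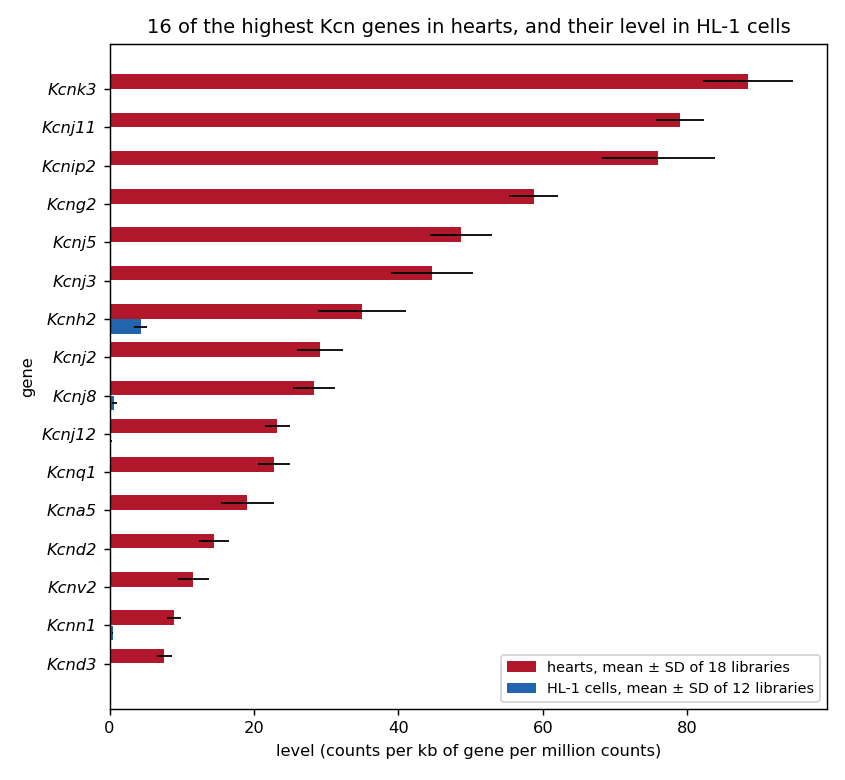
Mean level of the 16 highest channel genes reported here in hearts (red bars, 18 libraries) and of the same genes in HL-1 cells (blue bars, 12 libraries), in CPM per kilobase of gene with SD as bars. Kcnk3 leads in hearts at 88.5, and of these genes Kcnh2 has the longest blue bar, at 4.31.

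In young hearts, 9 of the 56 channel genes (16.1%) were called between ZT10 and ZT22 at an adjusted p under 0.05 (edgeR's quasi-likelihood test, Benjamini-Hochberg), where 14.4% of all 15443 tested genes were called. Of the 9, 7 were higher at ZT10, in the light, against 6.8% of all genes, and 2 were lower, against 7.57%. The median log2 fold change was 0.196 over the channel genes and 0.00689 over all genes, and 40 of the 56 were positive. The count of all called channel genes was therefore near the background, and whether the called genes share a role was not tested.

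Kcnh2 (chromosome 5, 24319589 to 24351604, minus strand) had the smallest p-value. Its TMM-normalized counts in young hearts were 1283, 1181 and 1163 at ZT10 and 861.8, 609.6 and 721 at ZT22. Every ZT10 heart was above every ZT22 heart, and the log2 fold change was 0.73 (SE 0.0929, adjusted p = 1.04e-05, edgeR). Kcnd2 (chromosome 6, 21215503 to 21729805, plus strand), the Kv4.2 pore of the fast transient outward current, had 424.7, 507.8 and 525.1 at ZT10 and 321.9, 329.2 and 316.6 at ZT22. Its groups did not overlap either, with a log2 fold change of 0.59 (SE 0.0850, adjusted p = 5.30e-05, edgeR). Kcnn2, the small-conductance channel SK2, had 251.2, 213.5 and 212.3 at ZT10 against 169.8, 118.2 and 151.5 at ZT22, also without overlap, and a log2 fold change of 0.64 (SE 0.126, adjusted p = 0.00138, edgeR). These 3 genes were called in every fit that left out 1 heart and under every other setting tried.

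The other called genes had smaller margins. Kcnq1 (chromosome 7, 143106362 to 143427042, plus strand), the pore of the slow delayed rectifier, had 567, 561.7 and 577.9 at ZT10 and 477.8, 396.7 and 467.1 at ZT22, with no overlap and a log2 fold change of 0.35 (SE 0.0910, adjusted p = 0.0112, edgeR). Without young ZT22 replicate 2 the difference was 0.27 (adjusted p = 0.0833, edgeR). The antisense RNA Kcnq1ot1, which overlaps Kcnq1, differed the other way, by -0.54 on the log2 scale (adjusted p = 0.0187, edgeR). The libraries were stranded, but whether the counting used strand is not given in the sources used here, so that reads of the 2 genes may not be told apart. Both acetylcholine-gated pores were higher at ZT10: Kcnj3 (chromosome 2, 55435970 to 55598145, plus strand) had 1466, 1303 and 1359 at ZT10 against 1144, 1144 and 1034 at ZT22, and Kcnj5 (chromosome 9, 32314707 to 32344350, minus strand) had 1541, 1353 and 1426 against 1313, 1103 and 1038. Neither gene overlapped between the times, with log2 fold changes of 0.31 (adjusted p = 0.0107) and 0.33 (adjusted p = 0.0148) by edgeR. Kcnj3 lost its call without young ZT10 replicate 1 (0.26, adjusted p = 0.0616) or young ZT22 replicate 3 (0.27, adjusted p = 0.0638), and Kcnj5 without either of these (0.27 and 0.26, adjusted p = 0.0782 and 0.0932) or young ZT22 replicate 2 (0.30, adjusted p = 0.0686). Both genes are abundant in atria, and the 5 atrial genes (Myl4 the most abundant, none at 0) summed to 553.4, 230.5 and 193.4 CPM at ZT10 and 195.2, 334.2 and 166.8 CPM at ZT22 in these hearts, with 0 of the 5 called and a median log2 fold change of 0.44. The part of atrial tissue in these differences was not tested.

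Kcnip1, a KChIP subunit, was called at low counts, with 9, 7 and 9 raw counts at ZT10 and 2, 0 and 3 at ZT22 (log2 fold change 2.32, SE 0.628, adjusted p = 0.0148, edgeR), and its call was lost without young ZT10 replicate 3 (2.19, adjusted p = 0.0518) or young ZT22 replicate 2 (1.68, adjusted p = 0.0869). Of the genes lower at ZT10, Kcnn1, the small-conductance channel SK1, had normalized counts of 204.5, 197.9 and 190.9 at ZT10 and 229.4, 245.7 and 280 at ZT22 (log2 fold change -0.35, SE 0.0932, adjusted p = 0.0134, edgeR), opposite in direction to Kcnn2. Its call was lost without young ZT10 replicate 3 (-0.33, adjusted p = 0.0539) or young ZT22 replicate 3 (-0.27, adjusted p = 0.0926). With every heart of the group in turn left out, the number of called channel genes lay between 5, without young ZT22 replicate 3, and 10.

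Kcnip2 is known as a rhythmic channel gene of the mouse heart, and its values at the 2 times sampled are given for comparison. It had 1603, 1592 and 1652 at ZT10 and 1589, 1527 and 1516 at ZT22, groups that narrowly did not overlap and whose log2 fold change of 0.07 was not called (adjusted p = 0.775, edgeR). The abundant Kcnk3 (-0.14, adjusted p = 0.417), Kcnj11 (0.03, adjusted p = 0.860), Kcnj12 (0.17, adjusted p = 0.254) and Kcng2 (-0.03, adjusted p = 0.859) were not called either in young hearts by edgeR.

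**Figure D2:**
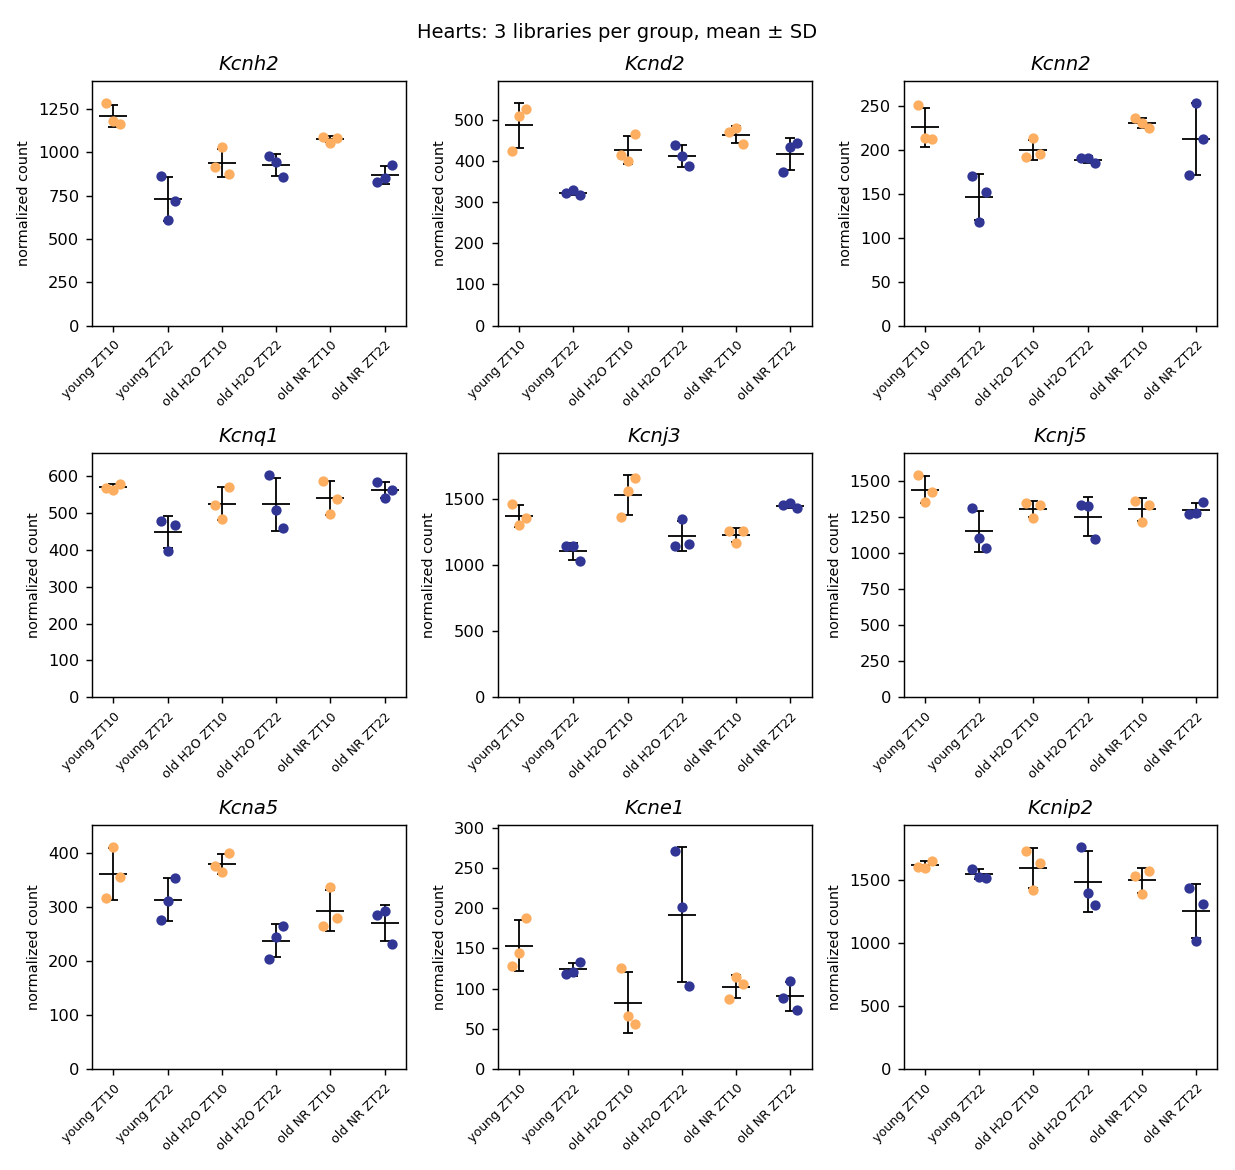
TMM-normalized counts of 9 channel genes in each heart (points, orange at ZT10 and blue at ZT22), with the mean and SD of 3 hearts per group. Kcnh2, Kcnd2 and Kcnn2 show a gap between the times in young hearts that is narrower in old H2O hearts, while Kcna5 and Kcnj3 keep a gap in old H2O hearts.

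Promoters are shown for the 2 genes with the smallest p-values in young hearts and for the only channel gene, among those called in any heart comparison, whose window held an E-box, the motif CACGTG bound by the clock factors CLOCK and BMAL1. The sequences are RefSeq's 250 bases before a transcript start on GRCm38.p6, written 5′ to 3′ in the direction of the gene. Capitals mark E-boxes (CACGTG) and GC boxes (GGGCGG, the motif of Sp1 factors), which were searched for on both strands and do not overlap each other. The windows are chr5:24329592-24329841 on the minus strand for Kcnh2, chr6:21215096-21215345 on the plus strand for Kcnd2, and chr11:111065914-111066163 on the plus strand for Kcnj2.
Kcnh2: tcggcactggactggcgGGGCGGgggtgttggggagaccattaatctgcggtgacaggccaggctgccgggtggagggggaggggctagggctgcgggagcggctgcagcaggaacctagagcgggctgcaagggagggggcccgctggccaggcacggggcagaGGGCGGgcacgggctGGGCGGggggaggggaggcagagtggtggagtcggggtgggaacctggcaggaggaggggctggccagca
Kcnd2: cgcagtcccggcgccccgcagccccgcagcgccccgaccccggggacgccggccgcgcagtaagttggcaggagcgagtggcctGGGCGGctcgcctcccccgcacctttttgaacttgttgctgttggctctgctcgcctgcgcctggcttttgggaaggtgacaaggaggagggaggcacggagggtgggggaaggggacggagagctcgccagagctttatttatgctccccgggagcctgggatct
Kcnj2: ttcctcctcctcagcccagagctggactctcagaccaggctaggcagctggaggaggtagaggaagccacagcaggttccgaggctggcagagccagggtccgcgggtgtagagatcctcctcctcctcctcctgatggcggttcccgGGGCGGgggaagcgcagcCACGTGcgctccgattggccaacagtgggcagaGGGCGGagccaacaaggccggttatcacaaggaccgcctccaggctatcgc
The Kcnh2 window held 3 GC boxes, the Kcnd2 window 1 and the Kcnj2 window 2, with the E-box of Kcnj2 84 bases before the start. Another Kcnh2 start lies upstream in the gene model and was not examined. Windows were found for 41 of the 56 genes, 58 windows in all, and for 16 of the 22 called in a heart comparison. An E-box was in 5 of the 58 windows (8.62%), those of Kcnab1, Kcne4, Kcnj2 and Kcnn4, and in 6.02% of all 32851 windows. The D-box TTATGTAA was in 0 of 58 and in 0.819% of all, and the ROR element AGGTCA in 1 (1.72%), that of Kcnh1, and in 14.02% of all. GC boxes were in 24 of 58 (41.4%) and in 32.7% of all. A match to these letters is a description and not a bound site.

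In old H2O hearts, 3 of the 56 genes (5.36%) were called between the times, against 4.2% of all genes, and only Kcnj3 was also called in young hearts. Kcna5 (chromosome 6, 126532551 to 126535412, minus strand), the Kv1.5 pore of the ultrarapid delayed rectifier, had 375.9, 364.6 and 399.8 at ZT10 and 204.6, 243.8 and 264.9 at ZT22. The groups were far apart, with a log2 fold change of 0.65 (SE 0.117, adjusted p = 0.00206, edgeR) that was called in every fit and setting. In young hearts Kcna5 had 316.8, 411.4 and 355.5 against 276.3, 311.4 and 354.2, overlapping groups, but the difference between the ages was not called (age by time interaction 0.45, adjusted p = 0.104, edgeR). Kcnj3 had 1365, 1567 and 1664 at ZT10 against 1145, 1352 and 1165 at ZT22 (log2 fold change 0.33, SE 0.0795, adjusted p = 0.0205, edgeR), with no overlap, and of the 6 fits without 1 heart it was called only in those without old H2O ZT10 replicate 1 or old H2O ZT22 replicate 2. The atrial genes summed to 480.8, 418.4 and 633.4 CPM at ZT10 and 156.0, 428.6 and 194.8 at ZT22 in the same hearts, with Myl7 called higher and a median log2 fold change of 1.14, and their part in the Kcnj3 difference was not tested. Kcne1 (chromosome 16, 92345982 to 92359468, minus strand) had 126.1, 66.21 and 55.79 at ZT10 against 270.8, 202 and 103.5 at ZT22, groups that overlap, and a log2 fold change of -1.16 (SE 0.281, adjusted p = 0.0195, edgeR). Its call was lost without old H2O ZT10 replicate 2 or 3 or old H2O ZT22 replicate 1 or 2 (-0.88 to -1.08, adjusted p = 0.0636 to 0.115). Between 1 channel gene, without old H2O ZT10 replicate 2 or 3, and 5, without old H2O ZT22 replicate 1, were called when 1 heart was left out.

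The age by time interaction tests whether the time difference itself changed with age. Of the 56 genes, 4 (7.14%) had a called interaction, against 6.89% of all genes, and all 4 were lower, against 3.76% of all genes called lower, that is, their ZT10 to ZT22 difference was less positive in old H2O than in young hearts. The median interaction was -0.268 over the channel genes and 0.00398 over all genes. Kcnh2 had 914, 1031 and 874.1 at ZT10 and 979.3, 942.6 and 858.3 at ZT22 in old H2O hearts. The times overlapped there, unlike in young hearts, with a log2 fold change of 0.03 (adjusted p = 0.907) and an interaction of -0.71 (SE 0.131, adjusted p = 0.00247) by edgeR. Kcnd2 had 413.2, 399.2 and 463.8 against 439.3, 411.2 and 386.3, again overlapping, with a log2 fold change of 0.05 (adjusted p = 0.783) and an interaction of -0.54 (SE 0.119, adjusted p = 0.00848) by edgeR. Both interactions were called in all 12 fits without 1 heart and under every other setting.

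Kcne1 had an interaction of -1.45 (SE 0.391, adjusted p = 0.0263, edgeR), from 127.8, 144 and 188.4 at ZT10 and 117.9, 121 and 133.7 at ZT22 in young hearts, overlapping groups, to the opposite order in old ones. It lost its call without old H2O ZT10 replicate 2 or 3, old H2O ZT22 replicate 2, young ZT10 replicate 3 or young ZT22 replicate 2 (-1.25 to -1.43, adjusted p = 0.0551 to 0.0785). Kcnn2, with 191.4, 213 and 195.3 at ZT10 and 191, 191.1 and 184.9 at ZT22 in old H2O hearts, had an interaction of -0.55 that was not called (adjusted p = 0.0600, edgeR), and neither were those of Kcnq1 (-0.33, adjusted p = 0.126), Kcnj5 (-0.26, adjusted p = 0.221) and Kcnj3 (0.01, adjusted p = 0.969). Between 2 and 8 channel genes were called when 1 heart was left out, with 8 without old H2O ZT22 replicate 1 and 2 without old H2O ZT10 replicate 2 or 3, old H2O ZT22 replicate 2 or young ZT22 replicate 2, and 6 without young ZT22 replicate 1.

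**Figure D3:**
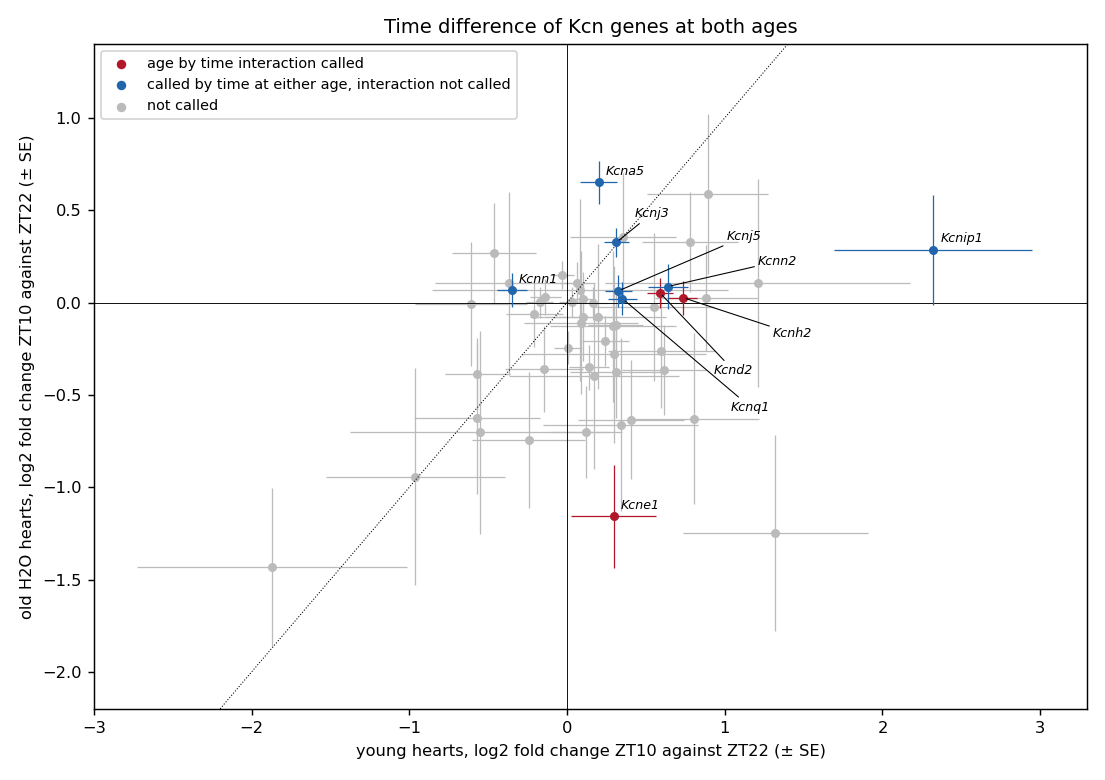
Log2 fold change ZT10 against ZT22 of the channel genes reported here in young hearts (x axis) and in old H2O hearts (y axis), with standard errors as bars, the diagonal of equal change dotted and Kcnh2, Kcnd2 and Kcne1, which had a called age by time interaction, in red. Kcnh2 and Kcnd2 lie at 0.73 and 0.59 on the x axis and near 0 on the y axis, and Kcne1 lies at -1.16 on the y axis.

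Between old H2O and young hearts at ZT22, 11 of the 56 genes (19.6%) were called, against 14.1% of all genes. Of these, 10 were higher in old hearts, against 7.96% of all genes called higher, and 1 was lower, against 6.17%, and the median log2 fold change was 0.132 over the channel genes and -0.0047 over all genes. Kcnip1 (chromosome 11, 33629339 to 33993152, minus strand) had the largest fold, with normalized counts of 36.1, 19.11 and 19.99 in old H2O and 2.535, 0 and 3.135 in young hearts. The groups were far apart at these low counts, with a log2 fold change of 3.64 (SE 0.513, adjusted p = 7.19e-05, edgeR). Kcnc1 (chromosome 7, 46396497 to 46438704, plus strand), the fast Kv3.1 pore known mainly from neurons, had 33.1, 35.48 and 69.97 against 8.872, 9.378 and 11.49 (log2 fold change 2.26, SE 0.474, adjusted p = 0.00281, edgeR). The nerve and glia genes summed to 18.6, 25.6 and 32.0 CPM in these old hearts and 28.9, 25.4 and 25.2 CPM in the young ones, with 0 of 2 tested called. Kcnd2 was higher by 0.34 (SE 0.0854, adjusted p = 0.0101, edgeR), and its 3 old hearts, given above, were all above the 3 young ones. Kcnip1, Kcnc1 and Kcnd2 were called in every fit and setting.

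Kcna7, a Kv1 pore of heart and skeletal muscle, had 103.8, 110.1 and 88.54 in old H2O and 63.37, 71.27 and 67.92 in young hearts at ZT22, without overlap (log2 fold change 0.56, SE 0.141, adjusted p = 0.0108, edgeR). Kcnab2, a Kv-beta subunit, had 52.65, 30.93 and 33.56 against 22.81, 14.07 and 22.99, also without overlap (log2 fold change 0.93, SE 0.267, adjusted p = 0.0238, edgeR). It is also found in immune cells, and of the 4 macrophage genes 3 (Adgre1, Cd68 and Csf1r) were called higher in the same hearts, with a median log2 fold change of 0.39, so that their part in the difference was not tested. Kcnh2 was higher by 0.34 (SE 0.0936, adjusted p = 0.0172, edgeR), with overlapping groups. Kcnk2, the stretch-sensitive K2P subunit TREK-1, had 46.63, 40.94 and 39.99 against 38.02, 24.38 and 12.54 (log2 fold change 0.78, SE 0.256, adjusted p = 0.0437, edgeR). Kcnv2, a silent Kv subunit, was higher by 0.39 with overlapping groups (adjusted p = 0.0365), Kcnn2 by 0.38 (adjusted p = 0.0493) and Kcnh1, an EAG pore with 4, 10 and 10 raw counts against 1, 2 and 2, by 2.02 (adjusted p = 0.0499) in edgeR's test. Kcna5 was the gene lower in old H2O hearts, by -0.38 (SE 0.120, adjusted p = 0.0358, edgeR). Only Kcnip1, Kcnc1 and Kcnd2 kept their calls in all 6 fits without 1 heart, Kcna7 lost its call in 1 of them, Kcnab2 in 2, Kcnh2 in 3, Kcna5 in 4, Kcnk2, Kcnv2 and Kcnn2 in 5 and Kcnh1 in all 6. The count fell to 4 without old H2O ZT22 replicate 2, to 5 without young ZT22 replicate 2 or 3, and to 7 without old H2O ZT22 replicate 1, and DESeq2 gave 7.

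At ZT10, 6 of the 56 genes (10.7%) were called between the ages, against 5.87% of all genes, 2 of them higher in old H2O hearts, against 2.95%, and 4 lower, against 2.92%. The median log2 fold change was -0.0827 over the channel genes and -0.00119 over all genes. Kcnip1 was again higher, with 22.18, 32.62 and 31.38 in old H2O and 10.01, 7.254 and 11.31 in young hearts (log2 fold change 1.60, SE 0.362, adjusted p = 0.00986, edgeR), and the groups did not overlap. Kcnc1 had 32.69, 15.35 and 5.812 against 3.335, 2.073 and 2.512, which is 3, 2 and 2 raw counts in the young hearts (log2 fold change 2.702, SE 0.763, adjusted p = 0.0384, edgeR). Both genes were thus called higher in old H2O hearts at either time, with a wide spread of Kcnc1 among the old hearts.

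Among the genes lower at ZT10, Kcnh2 fell by 0.36 on the log2 scale (SE 0.0913, adjusted p = 0.0206, edgeR), with all 3 old hearts below the young ones, where at ZT22 it had been higher in old hearts. Kcnj8 (chromosome 6, 142564837 to 142571614, minus strand), the Kir6.1 pore known from pericytes and smooth muscle, had 392.2, 396.3 and 344.1 in old H2O and 450.2, 453.9 and 489.9 in young hearts (log2 fold change -0.30, SE 0.0757, adjusted p = 0.0222, edgeR). The 6 genes of vascular smooth muscle and pericytes (Rgs5 the most abundant, none at 0) summed to 980.7, 947.0 and 906.4 CPM in the same old hearts and 1085, 1021 and 1110 CPM in the young ones, with 3 called lower and a median log2 fold change of -0.37. Their part in the Kcnj8 difference was not tested, and in bulk RNA fewer cells of a type cannot be told apart from less RNA per cell. Kcna2, a Kv1 pore of nerve fibres, had 29.18, 47.98 and 40.68 against 72.26, 72.54 and 75.37 (log2 fold change -0.88, SE 0.250, adjusted p = 0.0386, edgeR), beside nerve and glia genes that summed to 21.1, 24.7 and 21.7 CPM in old H2O and 32.0, 28.3 and 31.8 CPM in young hearts. The part of nerve in the Kcna2 difference was not tested.

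Each of the 6 calls at ZT10 was lost in at least 1 fit that left out 1 heart. Kcnip1 lost its call without young ZT10 replicate 2, Kcnj8 without old H2O ZT10 replicate 3 or young ZT10 replicate 3, Kcnh2 without old H2O ZT10 replicate 1 or 3 or young ZT10 replicate 1 (-0.31 to -0.34, adjusted p = 0.0787 to 0.109), and Kcna2 and Kcnc1 in 5 of the 6 fits. The count was 2 without old H2O ZT10 replicate 3, young ZT10 replicate 1 or young ZT10 replicate 2 and 4 in the other 3 fits.

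**Figure D4:**
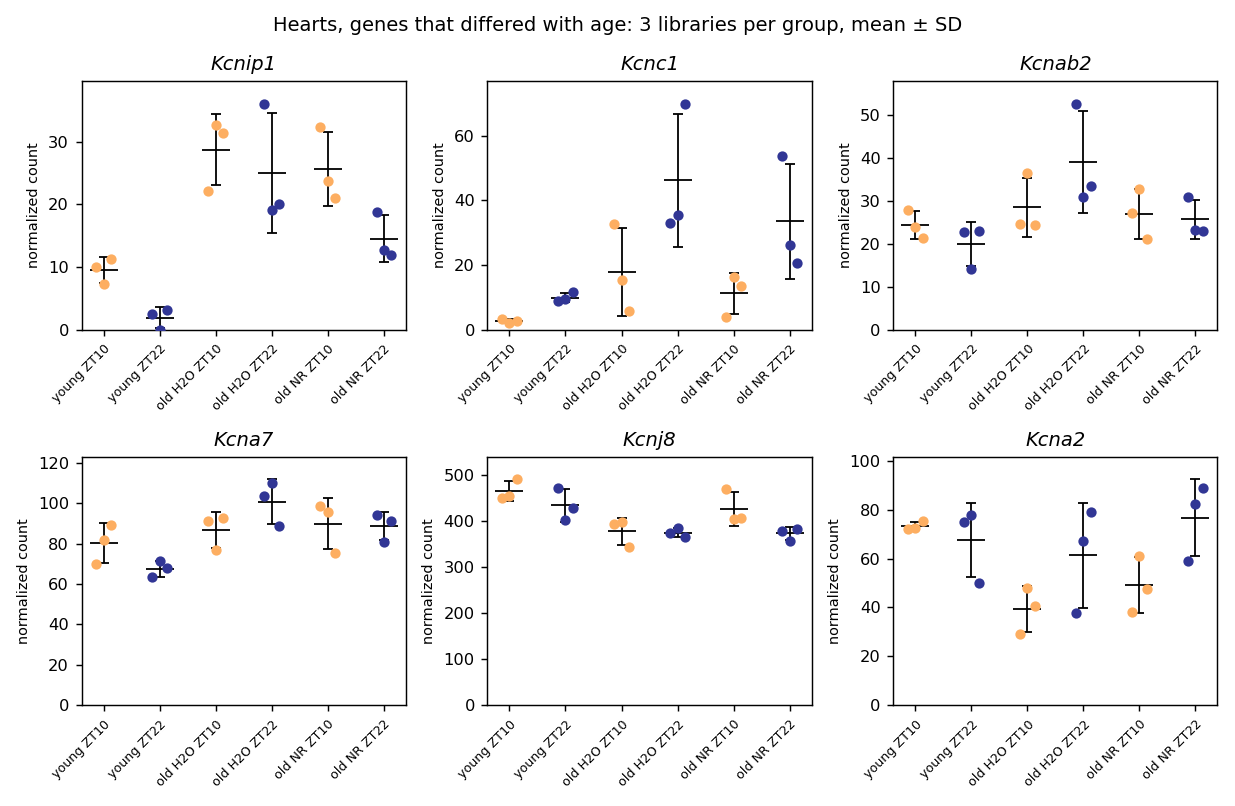
TMM-normalized counts of 6 channel genes that differed between old H2O and young hearts, in each heart (points, orange at ZT10 and blue at ZT22) with the mean and SD of 3 hearts per group. Kcnip1 and Kcnc1 are higher in both old H2O groups than in the young ones, and Kcna2 and Kcnj8 are lower in old H2O hearts at ZT10.

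In old NR hearts, 2 of the 56 genes (3.57%) were called between the times, against 5.37% of all genes, and both were lower at ZT10. Kcnd3, the Kv4.3 pore of the transient outward current, had 377.5, 388.5 and 335.3 at ZT10 and 431, 480.6 and 542.1 at ZT22 (log2 fold change -0.41, SE 0.0849, adjusted p = 0.00470, edgeR). The groups did not overlap, and the call was lost without old NR ZT10 replicate 3 (-0.34, adjusted p = 0.0502) but not without replicate 1 (-0.43, adjusted p = 0.0149). In old H2O hearts the same comparison gave -0.24 (adjusted p = 0.133, edgeR), and the NR by time interaction was not called (-0.16, adjusted p = 0.692, edgeR). Kcnj2, the Kir2.1 pore, had 884.1, 813.6 and 875.9 at ZT10 against 1115, 1008 and 1027 at ZT22 (log2 fold change -0.29, SE 0.0814, adjusted p = 0.0393, edgeR), without overlap, but none of the 6 fits without 1 heart called it. Kcnh2 had 1091, 1054 and 1085 against 831.2, 851.9 and 928.6. All 3 ZT10 hearts were above the ZT22 hearts, as in young and unlike in old H2O hearts, and its log2 fold change of 0.30 was not called by edgeR (adjusted p = 0.0529). It was called without the filter on low counts (adjusted p = 0.0439, edgeR) and by DESeq2 (adjusted p = 0.0458), and in none of the 6 fits without 1 heart, such as those without old NR ZT10 replicate 1 (adjusted p = 0.141) or replicate 3 (adjusted p = 0.128). Its NR by time interaction was not called (0.28, adjusted p = 0.472, edgeR). Kcnd2 had 470.3, 479.9 and 440.3 against 373.3, 433.4 and 443.7, overlapping groups with a log2 fold change of 0.14 (adjusted p = 0.367, edgeR). The number called lay between 0, without old NR ZT10 replicate 3, and 2 when 1 heart was left out.

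Of the 56 genes, 1 (1.79%) had a called NR by time interaction, Kcnj3, against 0.343% of all genes. In old NR hearts Kcnj3 had 1261, 1167 and 1259 at ZT10 and 1458, 1471 and 1433 at ZT22, so that the ZT22 hearts were all higher, whereas in old H2O hearts all 3 ZT10 hearts were above the ZT22 hearts. The interaction was -0.57 (SE 0.112, adjusted p = 0.0235, edgeR). It was not called without old NR ZT10 replicate 1 (-0.59, adjusted p = 0.0557), replicate 2 (-0.53, adjusted p = 0.0716) or replicate 3 (-0.57, adjusted p = 0.0551), nor without old H2O ZT10 replicate 2 or 3, old H2O ZT22 replicate 3 or old NR ZT22 replicate 2 (-0.51 to -0.56, adjusted p = 0.0519 to 0.104). Its partner Kcnj5 had 1362, 1215 and 1337 at ZT10 and 1273, 1276 and 1357 at ZT22 in old NR hearts, and its interaction was -0.06 (adjusted p = 0.898, edgeR). The atrial genes summed to 160.9, 164.3 and 161.8 CPM at ZT10 and 226.1, 306.1 and 216.5 CPM at ZT22 in old NR hearts, with a median NR by time interaction of -1.81 and 0 of the 5 called, though all 5 had an unadjusted p under 0.05 (10.3% of all genes). Their part in the Kcnj3 interaction was not tested.

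When old NR hearts were set against old H2O hearts of the same time, edgeR called 0 of the 56 genes at ZT10, against 0.285% of all genes, and 0 at ZT22, against 0.35%. At an unadjusted p under 0.05 stood 5 of the 56 genes at ZT10, against 10.1% of all genes, and 12 at ZT22, against 11.2%. DESeq2 called 1 at ZT10, Kcnj3, and 0 at ZT22. At ZT10 Kcnj3 had an edgeR log2 fold change of -0.32 (adjusted p = 0.0974), beside 3 atrial genes called lower (Myl4, Myl7 and Sln) and an atrial median of -1.80, and their part was not tested. At ZT22 the smallest p-values were those of Kcnmb1, the smooth muscle partner of the large-conductance channel, with -0.92 (adjusted p = 0.109, edgeR), and Kcne1, with -1.01 (adjusted p = 0.113, edgeR), whose counts were 88.62, 109.3 and 73.81 in old NR hearts. Of the 6 vascular genes, 2 (Acta2 and Myh11) were called lower with NR at ZT22.

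Across all heart comparisons, 22 of the 56 genes were called at least once and 34 never, where 28.5% of all 15443 genes tested were called at least once. The 34 included the most abundant ones, Kcnk3, Kcnj11, Kcnip2 and Kcng2, along with Kcnj12, Kcna4, Kcnab1, Kcnma1 and Kcnn3. Kcnj11 lay between 1472 and 1872 normalized counts over the 18 hearts. Kcnma1, the large-conductance pore, was among the rarer ones and lay between 2.073 and 14.45.

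A further list held 17 genes without a Kcn symbol that act with these channels as accessory subunits, anchors or regulators, of which 14 were tested in hearts. In young hearts Klf15, a transcription factor known to act on Kcnip2, was called higher at ZT10 and Amigo1, an accessory Kv subunit, lower. In old H2O hearts Klf15 was higher, and Amigo1 and the transcription factor Irx3 were lower. In old NR hearts only Amigo1 was called, also lower. Klf15 had 849.8, 780.1 and 879.9 at ZT10 and 443.8, 469.5 and 459.1 at ZT22 in old H2O hearts, far apart (log2 fold change 0.87, adjusted p = 3.39e-07, edgeR), against 773.7, 709.9 and 815.3 and then 538.6, 535.5 and 573.7 in young hearts (0.48, adjusted p = 0.000221, edgeR). In old NR hearts it had 647, 729.6 and 736.4 against 709, 664.7 and 566.7, which overlap, and its NR by time interaction was -0.73 (adjusted p = 0.00562, edgeR). Its age by time interaction was 0.39 (adjusted p = 0.0377, edgeR) and that of Irx3 -0.58 (adjusted p = 0.01003, edgeR). That of Irx5, of the same list, was -0.14 and not called (adjusted p = 0.744, edgeR). At ZT22, Irx3 was higher in old H2O than in young hearts (0.54, adjusted p = 0.000466, edgeR) and Klf15 lower (-0.26, adjusted p = 0.0345, edgeR), and at ZT10 Cav3, the caveolin of muscle, was lower (-0.28, adjusted p = 0.0131, edgeR). Klf15 was also higher in old NR than in old H2O hearts at ZT22 (0.49, adjusted p = 0.00815, edgeR), and none of the 14 was called at ZT10.

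In HL-1 cells, calls needed an adjusted p under 0.01 together with a fold over 1.5. FK866 changed 3 of the 20 tested channel genes (15%), against 4.59% of all 14760 genes tested. Kcnh2 had 723.2, 739 and 643.1 normalized counts in untreated cells and 355.9, 402.9 and 381.4 with FK866. The groups were far apart, and Kcnh2 fell by 0.88 on the log2 scale (SE 0.0832, adjusted p = 3.38e-06, edgeR). Kcnj8 had 88.58, 52.33 and 80.13 against 23.26, 14.55 and 20.56, also without overlap (log2 fold change -1.91, SE 0.269, adjusted p = 0.000132, edgeR). Both were called in every fit and setting. Kcnu1, the sperm channel Slo3, had 20.84, 18.95 and 24.65 against 46.52, 45.88 and 51.4 (log2 fold change 1.16, SE 0.276, adjusted p = 0.00651, edgeR), without overlap, but none of the 6 fits without 1 library called it. In the same wells the 4 fibroblast genes summed to 4036, 3917 and 3729 CPM untreated and 2712, 2590 and 2630 CPM with FK866, where Col3a1 (-0.67) and Pdgfra (-0.96) were called lower by edgeR. The cardiomyocyte gene Tnnt2, the 1 of 6 tested, was called higher (log2 fold change 2.87), and the part of these cell type markers in the channel differences was not tested. Kcnab1 (-0.34, adjusted p = 0.0010) and Kcnd1 (-0.41, adjusted p = 0.0033) passed the p threshold in edgeR's test and missed the fold. The most abundant channel gene, Kcnn4, had 1701, 1910 and 2009 in untreated cells and 1471, 1805 and 1230 with FK866, which overlap.

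With NR added to FK866, 2 of the 20 genes (10%) were called against FK866 alone, where 4.81% of all genes were called, and both were higher. Kcnj8 had 56.88, 50.16 and 46.09 with FK866 and NR, above the 3 FK866 wells and, apart from untreated replicate 2, below the untreated ones (log2 fold change 1.38, SE 0.276, adjusted p = 0.00192, edgeR), and lost its call without FK866 replicate 2 (1.21, adjusted p = 0.0112). Kcnh7, an ERG pore related to Kcnh2, had 89.55, 49.02 and 35.03 against 16.28, 22.38 and 22.62 (log2 fold change 1.48, SE 0.340, adjusted p = 0.00494, edgeR), with its highest value in FK866 NR replicate 1, the library with neural transcripts. Without that library its difference was 1.02 (adjusted p = 0.0280, edgeR) and it was not called, nor without FK866 replicate 1 (1.33, adjusted p = 0.0281) or replicate 2 (1.54, adjusted p = 0.0133). Kcnh2 had 550.6, 576.9 and 542, all between the FK866 and the untreated wells (log2 fold change 0.55 against FK866, adjusted p = 0.000266, edgeR), and Kcnd1 had 775.7, 709.1 and 668.3 (0.56, adjusted p = 0.000327, edgeR). Both passed the p threshold and missed the fold, as did Kcnab1 (0.35, adjusted p = 0.0007). Each of Kcnh2 and Kcnd1 was called in some fits without 1 library, Kcnh2 (0.59) and Kcnd1 (0.60) without FK866 replicate 2 and Kcnd1 (0.61) without FK866 NR replicate 3. Kcnu1 had 16.94, 20.52 and 31.34, below the FK866 wells, and was not called (-1.04, adjusted p = 0.0114, edgeR), but it was called by DESeq2 (-1.04, adjusted p = 0.0079) and by edgeR without FK866 NR replicate 3 (-1.35, adjusted p = 0.0063). With NR the fibroblast genes summed to 3781, 3758 and 3744 CPM, Col3a1 (0.62) and Pdgfra (1.09) were called higher and Tnnt2 lower (-2.12) by edgeR, and their part in these differences was not tested. These comparisons share the FK866 libraries, so that the return of Kcnh2 and Kcnj8 towards the untreated level is a description. Kcnd1 had 655.5, 672.2 and 612.2 in untreated cells, so that with NR it reached or passed that level. Its difference from untreated cells was 0.15 and not called (adjusted p = 0.215, edgeR).

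Across all HL-1 comparisons, 4 of the 20 genes were called at least once, where 7.88% of all genes were. edgeR called 0 of the 20 genes between FK866 with NR and untreated cells, against 0.901% of all genes. At an unadjusted p under 0.05 stood 6 of them, against 39.3% of all genes. With Ex527 compared with FK866 and NR, 0 were called, against 0.596%, and 5 had an unadjusted p under 0.05, against 23.2%. Against FK866 alone, 0 were called with Ex527 as well, against 1.27%, with 7 at an unadjusted p under 0.05 (27.1% of all genes). DESeq2 called 0 in all 3 comparisons. Kcnh2 had 562.1, 578.8 and 503.7 with Ex527, the highest above and the lowest below the range of the wells with FK866 and NR. Its log2 fold change against FK866 and NR was -0.02 (adjusted p = 0.917, edgeR). Kcnh2 with Ex527 was above FK866 alone by 0.53 (adjusted p = 0.0010, edgeR) without passing the fold. Kcnj8 had 26.95, 29.13 and 35.64 with Ex527, all below the FK866 and NR wells, a log2 fold change of -0.73 that was not called (adjusted p = 0.0953, edgeR). Kcnab1 had 1079, 1134 and 1199 against 1399, 1474 and 1446, also without overlap (-0.34, adjusted p = 0.0040, edgeR), and missed the fold. The fibroblast genes summed to 3244, 3401 and 3301 CPM with Ex527, with 0 of the 4 called by edgeR against FK866 and NR and all 4 at an unadjusted p under 0.05. The 6 genes of vascular smooth muscle and pericytes (Acta2 the most abundant, none at 0 throughout) summed to 8.44, 8.97 and 9.19 CPM with Ex527, 16.8, 12.3 and 13.4 CPM with FK866 and NR, 13.03, 13.8 and 12.4 CPM with FK866 and 16.3, 17.0 and 20.3 CPM in untreated cells. Of the 3 tested, Acta2 was called lower with Ex527 than with FK866 and NR (-0.62, adjusted p = 0.0029, edgeR), and in FK866 against untreated cells it passed the p threshold and missed the fold (-0.55, adjusted p = 0.0011, edgeR). The part of these markers in the Kcnj8 values was not tested. Of the 17 partner genes, 8 were tested in HL-1 cells, where Amigo1 and Ank2 were called higher with FK866 and Akap9 higher with FK866 and NR than in untreated cells.

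**Figure D5:**
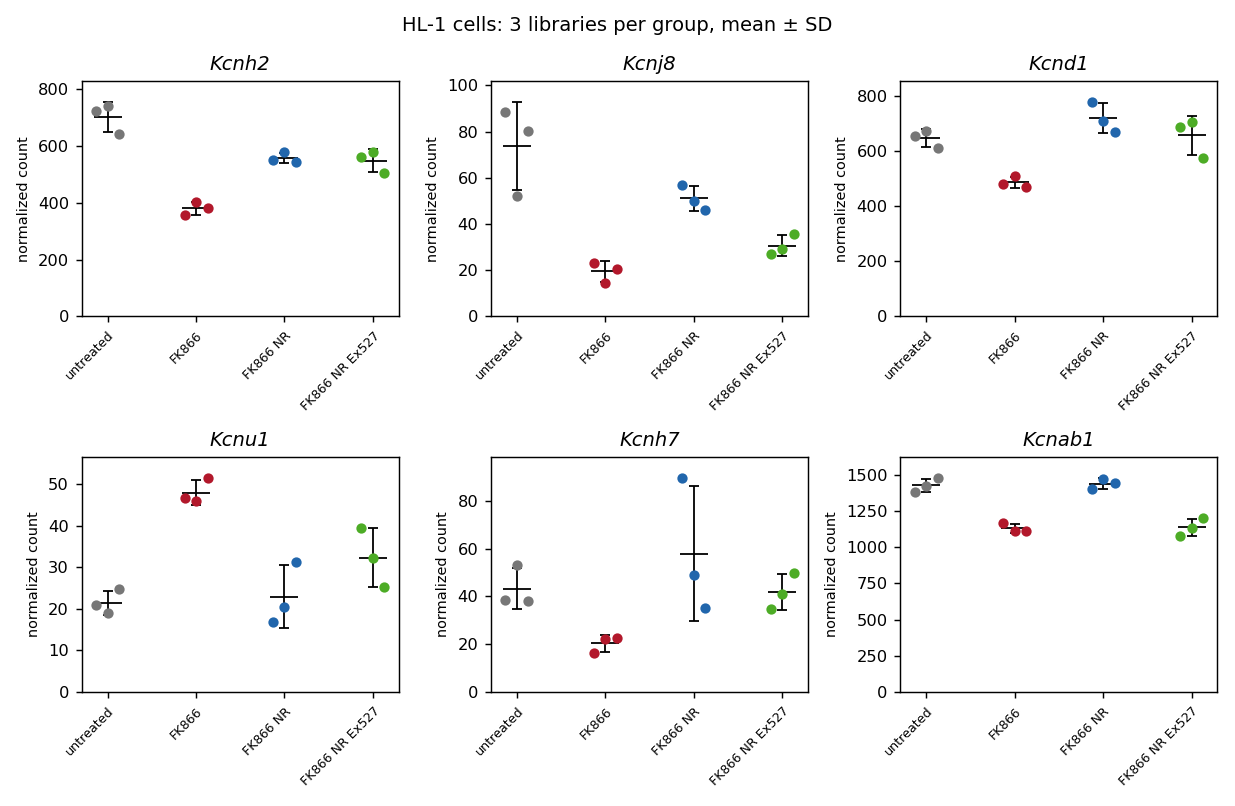
TMM-normalized counts of 6 channel genes in each HL-1 library (points) with the mean and SD of 3 libraries per group. Kcnh2 and Kcnj8 are lowest with FK866, and 1 library of the FK866 and NR group lies above the others for Kcnh7, at 89.55.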

How the data were processed

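RNA was sequenced from 18 mouse hearts and 12 HL-1 cultures, 3 libraries per group. The authors deposited counts of reads per gene for the hearts, made with Trimmomatic 0.39, STAR 2.7.10a on mm10, Picard 3.0.0 (duplicates removed) and featureCounts 2.0.4, without multi-mapping, ribosomal and mitochondrial reads. The authors also deposited a table of these counts divided by DESeq2 1.36.0 size factors and rounded, a score used here for gene symbols only. The names of these 2 tables are swapped: totals per library ran from 3922137 to 7562215 in the one named normalized and from 5228575 to 5767293 in the one named raw, where 7 libraries lacked a whole number from 1 to 20, against 0 in the other. For HL-1 the deposited counts per gene were used (mm10, HISAT2 named in the submitters' processing notes, the counter not given in the sources used here), and the FPKM table was not.

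The counts were normalized with TMM and fitted with edgeR 4.0.16 (limma 3.58.1, R 4.3.3), all 18 hearts in one quasi-likelihood fit (mean count over 5, 15443 genes, adjusted p under 0.05) and all 12 HL-1 libraries in another (filterByExpr, 14760 genes, adjusted p under 0.01 and fold over 1.5). Normalized counts are counts divided by the effective library size and scaled to its mean. A log2 fold change is positive where the group named first was higher. Levels between genes were set per gene length. With 3 libraries per group the smallest p of an exact permutation test of 1 gene would exceed the threshold, so calls rest on the spread that the model shares between genes. Replicates were single mice or separately cultured wells. Coordinates are those of GENCODE M21 (GRCm38), in which 20737 of 20764 heart and 54409 of 54532 HL-1 genes were found.

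The channel genes and the other lists were chosen with earlier results of these data known. Named were every called channel gene, a list of cardiac subunits by role, the 5 highest genes of each table and the partner list. Alternatives were DESeq2 1.42.0, DESeq2 size factors in edgeR, other filters on low counts, the replicate number as a block and leaving out each library, and 1 more was chosen after seeing the data. Some items are not reported here, though they count in the totals. The main edgeR fit of each table was first tested on simulated data, for young hearts by time and for FK866 against untreated cells. The alternatives and the interactions were not tested in this way.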

Additional observations from a re-analysis of the deposited data

Results flagged for a closer look

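The time differences of Kcnh2, Kcnd2 and Kcne1 differed between young and old H2O hearts, and that of Kcnj3 between old H2O and old NR hearts, by the test of the interaction itself (edgeR). The age by time interaction was -0.71 for Kcnh2 (adjusted p = 0.00247), -0.54 for Kcnd2 (adjusted p = 0.00848) and -1.45 for Kcne1 (adjusted p = 0.0263). For Kcnh2 and Kcnd2, all 3 young ZT10 hearts were above the 3 young ZT22 hearts and the old H2O hearts overlapped. For Kcne1 the call depended on single hearts. The NR by time interaction of Kcnj3 was -0.57 (adjusted p = 0.0235), in hearts whose atrial genes had a median interaction of -1.81, and the part of atrial tissue was not tested. This call too depended on single hearts, being lost in 7 of the 12 fits without 1 heart, against 5 of 12 for Kcne1.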

How the results depend on the processing

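No called difference of a channel gene changed direction under any alternative run. DESeq2 called 7 genes where edgeR called 11 between the ages at ZT22, and 1 (Kcnj3) where edgeR called 0 with NR at ZT10. Without a filter on low counts, 8 HL-1 genes in place of 2 were called between FK866 with NR and FK866, 7 in place of 0 against untreated cells and 7 in place of 0 with Ex527 against FK866 and NR. Without that filter and without FK866 NR replicate 1, an alternative chosen after seeing the data, these counts were 1, 0 and 0. Leaving out 1 library at a time gave 5 to 10 genes for young hearts by time (all libraries 9), 1 to 5 for old H2O (3), 0 to 2 for old NR (2), 2 to 8 for the age by time (4) and 0 to 1 for the NR by time interaction (1), 2 to 4 between the ages at ZT10 (6) and 4 to 9 at ZT22 (11). It gave 0 to 0 with NR at ZT10 and 0 to 1 at ZT22 (0 each), 2 to 2 with FK866 (3), 1 to 4 for FK866 with NR against FK866 (2), and 0 to 0 for FK866 with NR against untreated and for Ex527 against FK866 with NR and against FK866 (0 each). With the replicate number as a block, FK866 with NR against FK866 gave 1 gene in place of 2, Kcnh7 being lost (adjusted p = 0.0119, edgeR), Kcnh2 in old NR hearts by time was called (adjusted p = 0.0411, edgeR), and no other count moved by over 1.5 times. In no pair of groups did every same-numbered pair of samples correlate by over 0.1. Single pairs reached up to 0.163, between old H2O and old NR hearts at ZT22. Whether samples of one number shared more than the number was not tested. At these depths genes near the minimum count could be called only if their change was large.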
